A study of Drosophila melanogaster with 2 samples.

Results

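Eip75B (FBgn0000568), the ecdysone-response gene that encodes the nuclear receptor E75, lies on the minus strand of 3L from 17950953 to 18064696 in the dm6 assembly and is 113744 bp long. Binding of the GFP-tagged nuclear receptor Hr83 at this gene was described from deposited ChIP-seq region lists, in which a region is a stretch called as enriched over control chromatin. A region was taken as a member when its summit, the position of its highest enrichment, lay in the gene or within 1 kb of it. The thresholded list, made by comparing the replicates for reproducible regions, held 22 such peaks of 4797 in all. The relaxed lists, which keep weak regions too, held 95 of 30000 regions in the list called on both replicates pooled, 90 of 30000 in replicate 3 and 88 of 30000 in replicate 4. The thresholded peaks of the gene were also its 22 regions among the strongest 4797 of the pooled list. A single thresholded peak need not be strong in each replicate, and the one at 17958391 had no overlapping region in replicate 3. The gene was chosen by its count of thresholded peaks and their signals in these same lists, so the counts and signals below are a description, with no test.

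All data came from 1 group, Hr83-GFP larvae of Drosophila melanogaster at the wandering stage of the third instar, with biological replicates 3 and 4. These animals carried a stable insertion that expressed Hr83 with GFP at its C-terminus, and an anti-GFP antibody was used for the precipitation. Whole animals of pooled male and female sex were used, so the tissue in which a region was bound is not known, and the labels do not say whether the replicates were separate cultures or collections. The lists give a position and a signal per region and no read counts, so the depth of each replicate is unknown, and no untagged or mutant group was compared.

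E75 is made early in the response to the steroid hormone ecdysone, whose pulses at the end of larval life start the puparium and metamorphosis. The protein carries heme, senses nitric oxide, and holds back the receptor Hr3 by binding to it. The gene has alternative promoters that give isoforms with different N-termini, and because it is on the minus strand, transcripts run toward lower coordinates. Hr83 is an orphan receptor of the class that includes Tll, for which the hexamer AAGTCA is the known half-site, while AGGTCA is shared by many nuclear receptors.

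The strongest region of the locus and 4 of the peaks that hold the hexamer AGGTCA are shown here because the results on strength and on sequence turn on them. All are read from the plus strand of dm6 (release 6), from 5′ to 3′, and lie in introns, outside annotated exons of the gene. The strongest spans chr3L:18011834-18011992. The others span chr3L:18000027-18000282, chr3L:18003204-18003459, chr3L:18016503-18016758 and chr3L:18063219-18063474. Capitals mark matches on either strand to the hexamers AAGTCA or AGGTCA, to the repeats GAGAGAG or CACACACA, and to the GATA motif GATAAG, so that the reverse complement of each is capitalised too.
Peak at 18011913: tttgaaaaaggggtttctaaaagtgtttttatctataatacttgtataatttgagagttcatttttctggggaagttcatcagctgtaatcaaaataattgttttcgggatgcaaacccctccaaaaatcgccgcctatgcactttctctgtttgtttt
Peak at 18000155: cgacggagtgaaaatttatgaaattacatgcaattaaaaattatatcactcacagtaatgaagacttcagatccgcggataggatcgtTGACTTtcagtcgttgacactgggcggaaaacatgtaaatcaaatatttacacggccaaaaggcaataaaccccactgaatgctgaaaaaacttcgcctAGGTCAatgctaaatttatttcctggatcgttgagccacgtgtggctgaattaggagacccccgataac
Peak at 18003332: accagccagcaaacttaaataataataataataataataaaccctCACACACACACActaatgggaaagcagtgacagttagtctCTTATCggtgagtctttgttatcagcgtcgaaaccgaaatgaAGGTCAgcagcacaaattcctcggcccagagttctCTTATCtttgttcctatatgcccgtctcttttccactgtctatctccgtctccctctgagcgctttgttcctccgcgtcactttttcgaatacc
Peak at 18016631: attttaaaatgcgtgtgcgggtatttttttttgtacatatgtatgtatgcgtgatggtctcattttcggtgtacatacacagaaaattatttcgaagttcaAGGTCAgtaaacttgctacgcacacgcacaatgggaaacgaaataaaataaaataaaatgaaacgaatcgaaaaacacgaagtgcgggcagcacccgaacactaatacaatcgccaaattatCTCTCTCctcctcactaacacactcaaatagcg
Peak at 18063347: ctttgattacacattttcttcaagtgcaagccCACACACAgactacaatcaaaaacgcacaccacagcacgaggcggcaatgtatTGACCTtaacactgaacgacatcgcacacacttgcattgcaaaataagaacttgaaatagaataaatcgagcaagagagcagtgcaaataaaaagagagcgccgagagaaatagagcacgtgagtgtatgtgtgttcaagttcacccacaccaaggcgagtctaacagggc

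The strongest peak, with its summit at 18011913, lay in the long intron between the starts of isoforms RG and RC, 12092 bp upstream of the RC start. The deposited signal, the authors' own score of a region, was 166 in replicate 3, where it ranked 72 of 30000, and 172 in replicate 4, where it ranked 110. In the thresholded list its signal was 350, at rank 70, and the next peak of the gene reached 148. It was the highest region of the gene in each of the 4 lists, and its rank was close between the replicates. At 159 bp it was also the narrowest of the 22, since the other 21 were 256 bp wide, the greatest width in the list. Of the 4775 thresholded peaks outside the gene, 91.1% had that full width. With 34.0% GC the strongest peak also had the lowest GC content of the 22. As the sequence above shows, it held none of the capitalised motifs.

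The promoters of the gene differed in what was called near them, taken here as a summit within 500 bp of a transcription start site. Near the RA start at 17971439, the peak at 17971188 had a signal of 73.1 in replicate 3 (rank 644) and 93.0 in replicate 4 (rank 786). Its thresholded signal of 148 was the next highest at the gene. Near the RD start at 17961814, the peak at 17961727 had a signal of 62.1 in replicate 3 (rank 937) and 70.6 in replicate 4 (rank 1563), with a thresholded signal of 124. Both lay in the 5′ UTR of the isoform that starts there, 251 bp downstream of RA and 87 bp downstream of RD, and both ranked within the strongest 4797 regions of either replicate.

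The RC start at 17999821 was flanked by a pair of peaks. The peak at 17999519, 302 bp downstream in the 5′ UTR, had a signal of 38.5 in replicate 3 (rank 2665) and 59.8 in replicate 4 (rank 2247). In the thresholded list it had 89.5. The peak at 18000155, 334 bp upstream, had 24.9 in replicate 3 (rank 5669) and 48.4 in replicate 4 (rank 3437), and 77.0 in the thresholded list. The RF start at 18064696, the outermost start of the gene, had a peak 207 bp upstream at 18064903. That peak was weak in replicate 3 (signal 12.9, rank 17773) and stronger in replicate 4 (signal 54.7, rank 2716), and its thresholded signal was 67.2.

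No thresholded peak lay within 500 bp of the RE, RB and RG starts. Relaxed regions of the pooled list lay there, 325 bp upstream of RE with a signal of 31.0, 242 bp downstream of RB with 31.3, and 60 bp upstream of RG with 58.2. The region at RG was close under the threshold, and those at RE and RB were far weaker than the lowest thresholded peak of the gene, at 66.4. In all, 5 of the 22 peaks (22.7%) lay within 500 bp of an isoform start, and these lay at the starts of RF, RC, RA and RD.

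**Figure D1:**
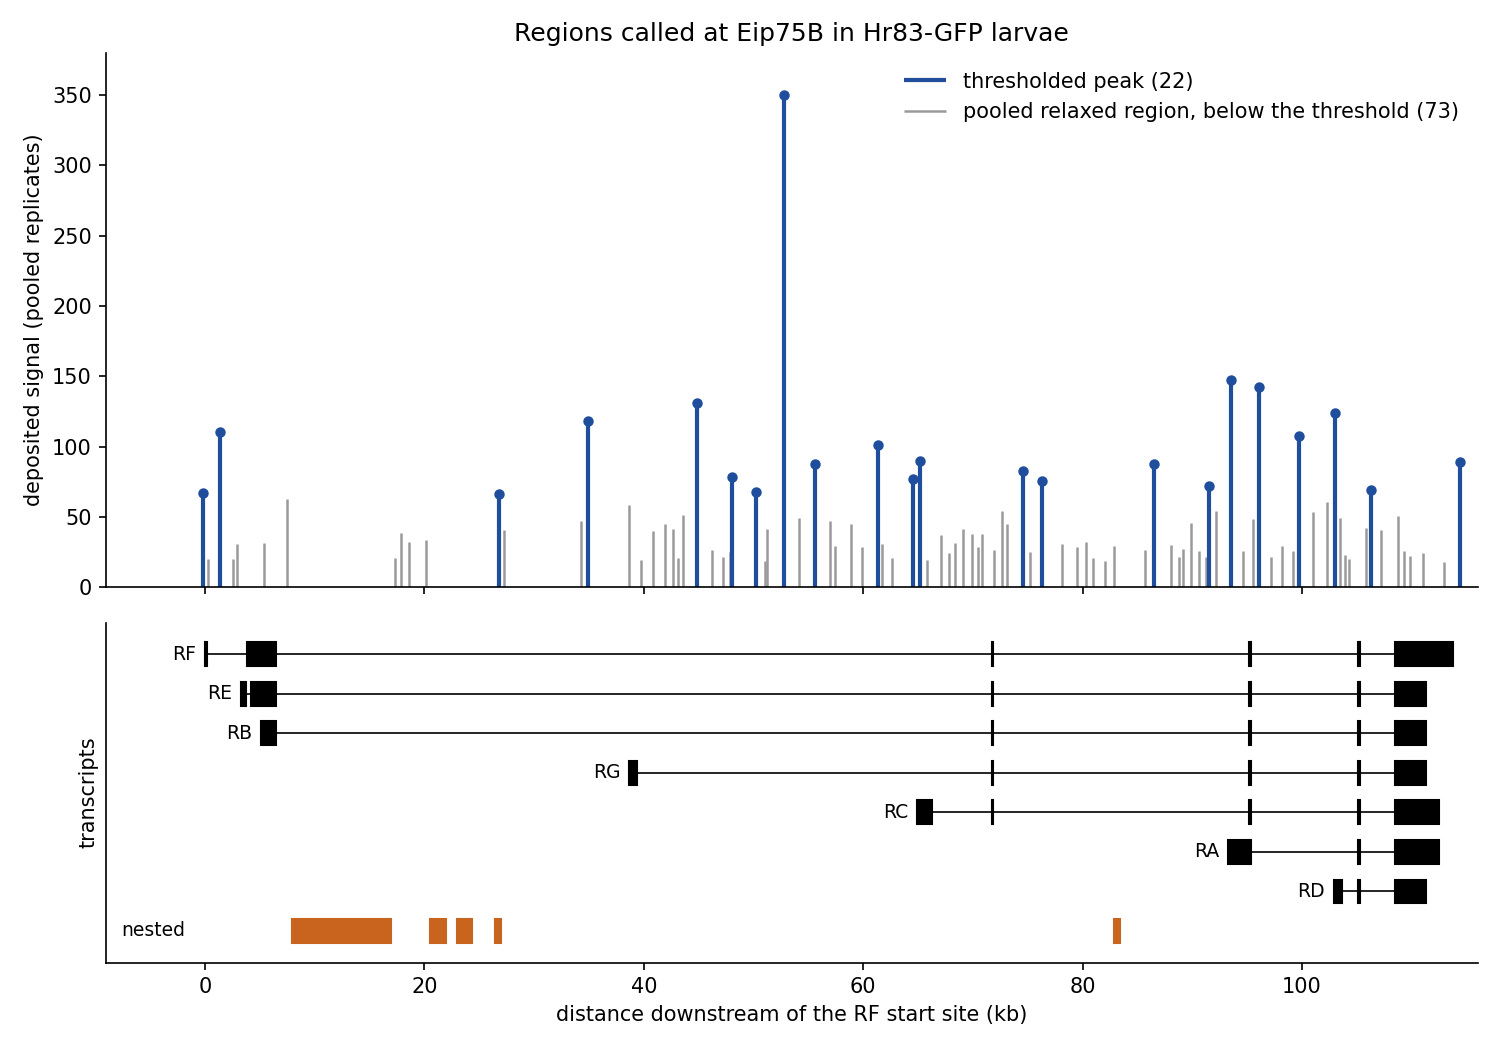
Deposited signal of each region of the pooled list at Eip75B (vertical axis) against the distance of its summit from the RF start in kb, in the direction of transcription, above the exons (boxes) of the 7 transcripts and the nested genes (orange). Blue stems are the 22 thresholded peaks and grey stems the 73 other pooled regions; the stem of 350 stands apart, and few stems lie in the nested stretch after the first exons.

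Most of the regions lay in introns, but introns also cover most of the 113.7 kb gene, as the lengths below show. No preference for introns is therefore read from these counts. Of the 22 peaks, 17 lay in introns, 3 in 5′ UTRs, 1 upstream and 1 downstream of the gene, and 0 in coding exons. Of the 95 pooled regions, 81 lay in introns, 7 in coding exons, 4 in 5′ UTRs, 1 in a 3′ UTR, 1 upstream and 1 downstream. In the introns of RF, the longest transcript, intron 3 (65.2 kb) held 10 peaks, intron 4 (23.4 kb) 5, intron 5 (9.74 kb) 3, intron 1 (3.66 kb) 1 and intron 6 (3.16 kb) 1. These introns also contain the starts of the shorter isoforms, so that 3 of their peaks are the 5′ UTR peaks of RD, RA and RC.

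Along the gene, the peaks were spread unevenly. The stretch of 26.2 kb between the RG and RC starts held 7 peaks, or 2.67 per 10 kb, and the 9.63 kb between the RA and RD starts held 3, or 3.12 per 10 kb. The 33.6 kb between the RB and RG starts held 2, or 0.596 per 10 kb, and its pooled regions were sparse as well, at 11 against 25 between RG and RC. The gap between neighbouring summits had a median of 3.27 kb and reached 25.4 kb, between 18037908 and 18063347. Between these peaks there were still 8 pooled regions, 8 regions of replicate 3 and 7 of replicate 4, with a highest pooled signal of 62.5.

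The widest gap contains a transposable element of the roo family (FBti0020145), from 18047763 to 18056761, and the protein-coding genes CG32192 (18040317 to 18041738) and CG42393 (18042733 to 18044214), whose functions are not given here. In each of these 3 elements, 0 summits were found in any list, and 1 region of replicate 3 reached into the end of the roo element by 15 bp. In the roo element, 99.3% of all 30-base words occur again elsewhere on the 6 main chromosome arms, against 0% in each of the 22 peaks. How reads with several matching places were treated is not given in the sources used here, so the absence of a summit in the roo element cannot be told apart from reads that could not be placed. Of the nested noncoding genes, lncRNA:CR45922 (18037723 to 18038280) held the weakest thresholded peak of the locus, with its summit at 18037908, 372 bp from the lncRNA start. This peak was weak in replicate 3 (signal 15.6, rank 12534) and stronger in replicate 4 (57.1, rank 2496), with a thresholded signal of 66.4. The other, lncRNA:CR45921 (17981321 to 17981841), had a pooled region 34 bp from its start with a signal of 29.6 that did not pass the threshold.

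Next to the strongest region, the intron between the RG and RC starts held peaks whose strength differed between replicates. At 18019817 the signal was 73.5 in replicate 3 (rank 634) and 51.7 in replicate 4 (rank 3053), and 131 in the thresholded list. At 18003332 it was 52.2 in replicate 3 (rank 1423) and 35.5 in replicate 4 (rank 5565), and 102 in the thresholded list. Both ranked higher in replicate 3, and the second fell below the strongest 4797 regions of replicate 4.

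The peaks at 18009133, 18014465 and 18016631 in the same stretch were nearer to each other in rank. At 18009133 the rank was 4374 in replicate 3 and 2266 in replicate 4, with signals of 29.1 and 59.7. The peak at 18014465 ranked 4145 in replicate 3 and 3560 in replicate 4 (signals of 30.2 and 47.3), and that at 18016631 ranked 3490 and 3807 (33.3 and 45.5). All 3 were within the strongest 4797 regions of both replicates.

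Toward the 3′ end, the peaks between the RC start and the end of the gene mostly ranked higher in replicate 4. The peak at 17968652, in an intron 2787 bp downstream of RA, had a signal of 46.2 in replicate 3 (rank 1855) and 94.2 in replicate 4 (rank 757), and its thresholded signal of 143 was close to that at the RA start. At 17965000, 3186 bp upstream of RD, the signal was 32.8 in replicate 3 (rank 3569) and 86.4 in replicate 4 (rank 942). At 17973137, 1698 bp upstream of RA, it was 13.9 in replicate 3 (rank 15563) and 66.3 in replicate 4 (rank 1813). The last of these stood high only in replicate 4, while the first was strong in each replicate.

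Farther into the intron between RC and RA, the peaks at 17978146, 17988358 and 17990150 had thresholded signals of 87.4, 75.5 and 82.8. In replicate 3 they ranked 3727, 8897 and 3037, and in replicate 4 they ranked 2579, 2871 and 2629. The middle one was thus the only one of these 3 outside the strongest 4797 regions of a replicate. At 17958391, in an intron 3423 bp downstream of RD, replicate 3 had no overlapping region, and replicate 4 had one with a signal of 57.2 at rank 2480. Beyond the 3′ end, the peak at 17950336 ranked 1885 in replicate 3 and 3861 in replicate 4, with a thresholded signal of 89.0.

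At the 5′ end, the first intron of RF held 1 peak, at 18063347, that ranked 652 in replicate 3 (signal 72.8) and 4944 in replicate 4 (signal 38.4). The peak at 18029760, 3728 bp upstream of RG, ranked 1970 in replicate 3 (signal 44.9) and 972 in replicate 4 (signal 85.7). Their thresholded signals were 110 and 118, so peaks of a like signal in the thresholded list came from opposite orders in the replicates.

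**Figure D2:**
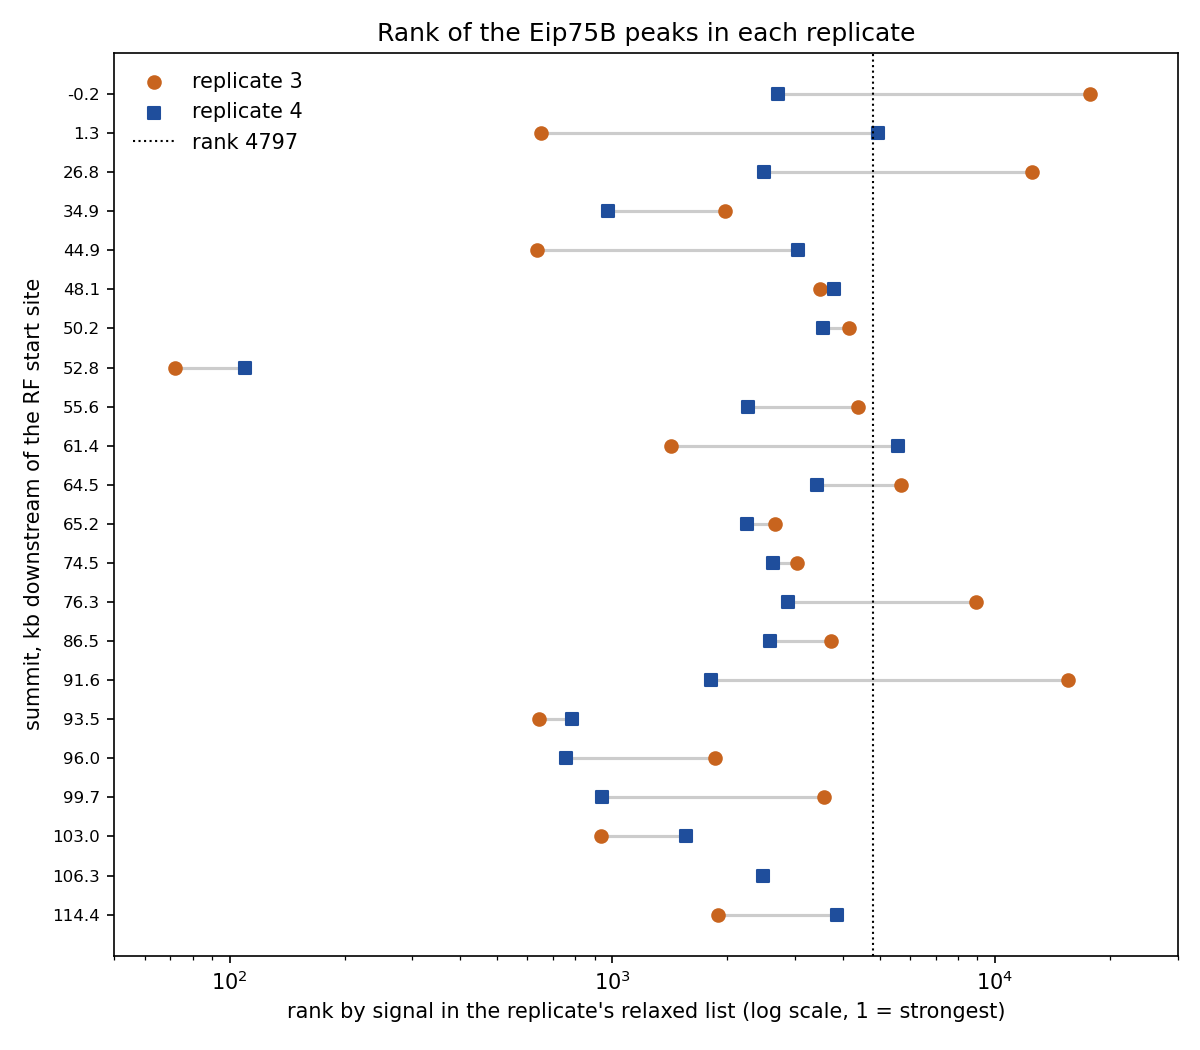
Rank by signal (log axis, 1 is the strongest of 30000) of the region that overlaps each of the 22 thresholded peaks, in replicate 3 (orange circles) and replicate 4 (blue squares), with the peaks ordered from the RF start downward by distance in kb. The dotted line is rank 4797. Left of it lie 16 peaks in replicate 3, 20 in replicate 4 and 14 in both, and 1 peak has no region in replicate 3. The share over all thresholded peaks was not computed for these counts.

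Over the 22 peaks, 21 had an overlapping region in replicate 3 and 22 in replicate 4, so 21 were found in both lists. Of the 4775 other thresholded peaks, 4669 were found in both lists, so the gene did not stand out in this. Of the 22 peaks, 16 were among the strongest 4797 regions of replicate 3, 20 among those of replicate 4, 14 among both and 0 among neither. Of the 21 found in both lists, 8 ranked higher in replicate 3 and 13 in replicate 4, and for 8 of them the ranks differed by more than 3 times. Of the 4669 other thresholded peaks found in both lists, 2290 ranked higher in replicate 3 and 2377 in replicate 4. For the remaining counts the share over all thresholded peaks was not computed, so they are not read as a trait of the gene. Spearman's rho between the replicates' signals was 0.14 over these 21 peaks, which share their libraries and the selection for the thresholded list, and 0.40 over the 4669 other thresholded peaks found in both lists. Over the 53 relaxed regions of replicate 3 at the gene that overlapped a region of replicate 4, rho was 0.51. Over the 39 whose summit lay within 100 bp of a replicate 4 summit, it was 0.62. Both replicates thus marked the gene. The order of the 21 thresholded peaks was only weakly shared, while that of the overlapping relaxed regions was shared more closely.

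In the relaxed lists, 53 of the 90 regions of replicate 3 (58.9%) overlapped a region of replicate 4, and 48.8% of all replicate 3 regions did so. Of the 88 regions of replicate 4, 56 (63.6%) overlapped a region of replicate 3, and 49.3% of all replicate 4 regions did so. Of the 95 pooled regions at the gene, 22 (23.2%) were in the thresholded list, and 16% of all pooled regions were. The gene was chosen by its thresholded peaks, which enter all 3 of these shares, so nothing is read from them.

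The threshold fell within a run of close values. Just inside were the peaks at 18037908 (66.4), 18064903 (67.2), 18014465 (67.5) and 17958391 (69.0). Just outside were the pooled regions at 18057215 (62.5), 17962456 (60.3), 18026092 (58.2) and 17992081 (54.4). The region at 18026092 is the one 60 bp upstream of the RG start, so the nearest region at RG lay under the weakest thresholded peak of the gene by a narrow margin in signal.

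Some regions of the gene were strong in 1 replicate without entering the thresholded list. Among the strongest 4797 regions of replicate 3, 20 lay at the gene and 4 of these did not overlap a thresholded peak. In replicate 4 it was 5 of 25. The share over all of the strongest regions of a replicate was not computed, so these counts are not read as a trait of the gene. The highest of the 4 was at 17995500, with a signal of 46.4 (rank 1839) in replicate 3. The strongest replicate 4 region that overlapped it had its summit at 17995685 and a signal of 33.4 (rank 6078). The highest of the 5 was at 17972570, with a signal of 58.0 (rank 2389) in replicate 4. The replicate 3 region that overlapped it had its summit at 17972796 and a signal of 14.6 (rank 14179). The summits of each pair lay apart, so a pair need not be the same site. The regions at 17995500 and 17972570 were thus each well within the strongest 4797 regions of a single replicate.

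GC content moved with the replicate in which a peak ranked higher. The 8 peaks that ranked higher in replicate 3 had a median GC content of 43.8%, and the 13 that ranked higher in replicate 4 had a median of 50%, with ranges of 34.0 to 51.2% and 37.5 to 55.9% that overlapped. Spearman's rho between GC content and the log2 ratio of the rank in replicate 4 over the rank in replicate 3 was -0.43 at the gene (n = 21) and -0.19 at the other thresholded peaks (n = 4669), points that share the same pair of libraries. Outside the gene the medians were 42.5% and 45.3%. This relation was looked at after the values were seen, and the part of GC content in the replicate differences was not tested. Per the labels, a size range was stated for replicate 3, of 200 to 300, and none for replicate 4.

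**Figure D3:**
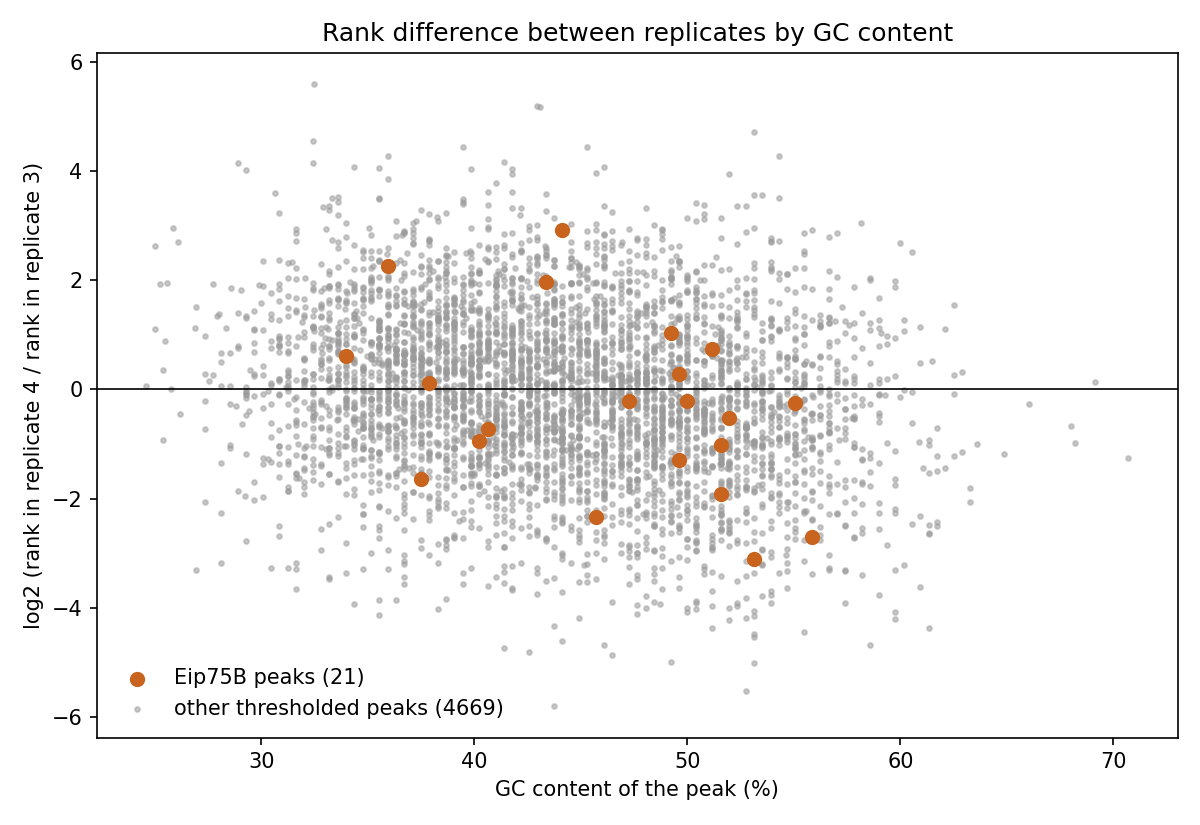
GC content of a thresholded peak in percent (horizontal axis) against the log2 ratio of its rank in replicate 4 over its rank in replicate 3 (vertical axis; above 0 means that replicate 3 ranked it higher), for the 21 Eip75B peaks found in both lists (orange) and 4669 other peaks (grey). The orange points run from upper left to lower right with wide scatter (rho -0.43), and the grey cloud leans the same way (rho -0.19).

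By median, the Eip75B peaks lay farther from annotated transcription starts than the rest of the thresholded list. Of the 22, 6 (27.3%) lay within 500 bp of any annotated transcription start, nested genes included, and 64.9% of the 4775 other peaks did. The median distance to a start was 3304.5 bp at the gene and 118 bp elsewhere, and 7 of the 22 (31.8%) were over 5 kb away, with 7.12% elsewhere. The median GC content was 48.2% at the gene (range 34.0 to 55.9%). Over the whole thresholded list, which includes these peaks, it was 44.1% (24.6 to 70.7%). The range at the gene lay within that of the list, so no base composition particular to the gene is read from the medians. The median signal of the Eip75B peaks, 88.5, was near that of the other peaks, 93.8, so the gene had many peaks of ordinary strength rather than a run of very strong ones, with the peak at 18011913 as the exception. A gene of this length has much sequence far from a start, and what length contributes was not tested.

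The sequences under the summits were searched on both strands, within 100 bp of each summit, for 10 motifs. AGGTCA was found in 6 of the 22 peaks (27.3%), in 3.02% of all thresholded peaks, and in 4.79% of pooled regions that did not pass the threshold. At the gene itself, 11 of the 73 pooled regions below the threshold (15.1%) held it, so the hexamer was also frequent in the weaker regions of the locus. The 6 peaks were those at 17958391, 18000155, 18003332, 18016631, 18037908 and 18063347, and 4 of them are among the sequences printed above. AGGTCA lay within 50 bp of the summit in 5 of the 6.

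AAGTCA, the half-site known for the class of Hr83, was found in 4 of the 22 peaks (18.2%), in 8.67% of all thresholded peaks and in 9.94% of pooled regions below the threshold. At the gene, 7 of the 73 weaker regions (9.59%) held it. The peak at 18000155 near the RC start held both hexamers, AAGTCA before its summit and AGGTCA after it in plus strand order. At least 1 of these hexamers was found in 9 of the 22 peaks (40.9%), in 11.4% of all thresholded peaks and in 14.3% of weaker pooled regions. At the gene, 17 of the 73 weaker regions (23.3%) held at least 1. The extended form AAAAGTCA, which contains AAGTCA, was found in 0 of the 22 peaks. It was rare everywhere, in 1.38% of all thresholded peaks and 1.61% of weaker pooled regions, so nothing is read from its absence. An inverted repeat of AGGTCA with 1 base between the hexamers, of the kind known for the ecdysone receptor, was searched with at most 2 mismatches. It was found in 1 of the 22 peaks (4.55%), at 18016631, in 0.229% of all thresholded peaks and in 0.555% of weaker pooled regions. At the gene, 3 of the 73 weaker regions (4.11%) held it, a share close to that of the peaks.

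Of the other motifs, GAGAGAG, bound by the GAGA factor Trl, was found in 8 of the 22 peaks (36.4%), in 12.0% of all thresholded peaks and in 5.13% of weaker pooled regions. At the gene, 11 of the 73 weaker regions (15.1%) held it, and within 50 bp of the summit the count was 4 of the 22. The repeat CACACACA was found in 6 peaks (27.3%), in 10.7% of all thresholded peaks and in 7.06% of weaker ones. At the gene, 5 of the 73 weaker regions (6.85%) held it, and within 50 bp of the summit the count was 3 of the 22. GATAAG, known for GATA factors, was found in 2 of the 22 (9.09%) and in 13.0% of all thresholded peaks. TATCGATA, known for Dref at promoters, was found in 0 of the 22 and in 6.50% of all thresholded peaks, GTCACACT in 0 and 3.88%, and TGACTCA in 0 and 2.54%. In all, 15 of the 22 peaks held at least 1 of the 10 motifs, and the strongest peak was among the 7 that held none. The share of all thresholded peaks with at least 1 of the 10 was not computed. This count and the lack of a motif in the strongest peak are therefore not read as a trait of the gene. A match is a stretch of letters and does not show which protein was bound.

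Among 13945 protein-coding genes, Eip75B had the highest count of thresholded summits, 22, followed by sbb with 18, tara with 17 and the ecdysone receptor gene EcR with 15. The genes sbb and tara were named after their values were seen. By the same rule, 4547 of these genes (32.6%) had at least 1 summit. The 67 other genes of a length within 20% of that of Eip75B had a median of 1 summit and at most 11. The genes nearest to it in count among these were bun with 11, Svil with 9, CG1677 with 9, jing with 8 and CG46467 with 7, the last of which shares its regions with an overlapping gene. From the strongest 4797 regions of replicate 3, Eip75B had 20 summits and these 5 genes had 11, 13, 6, 8 and 5. From those of replicate 4, Eip75B had 25 and these 5 genes had 10, 8, 8, 12 and 5. Per 10 kb of gene and flank, Eip75B had 1.90 summits, EcR had 1.80, sbb 2.22, Eip74EF 2.23 and tara 4.63, and the genome had 0.358. The gene thus stood first by count. By density it stood behind the shorter genes sbb, Eip74EF and tara and ahead of EcR, which is also shorter.

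**Figure D4:**
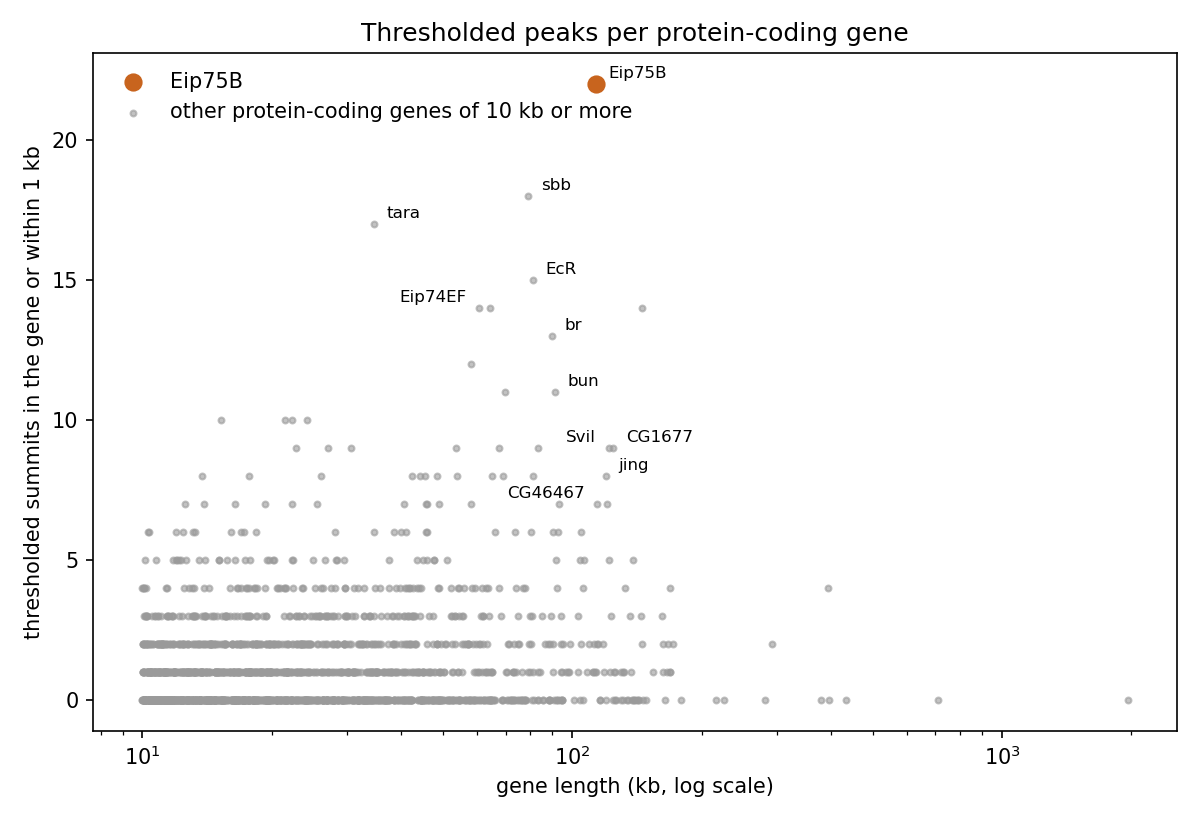
Thresholded summits in the gene or within 1 kb (vertical axis) against gene length in kb (log axis) for Eip75B (orange) and the other protein-coding genes of at least 10 kb (grey points). Eip75B is the highest point at 22, above sbb at 18 and tara at 17, while most genes of its length have 0 to 3.

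Other genes of the ecdysone response were counted from a list of 27, of which 27 matched the annotation. Of these, 20 (74.1%) had a thresholded summit in the gene or within 1 kb, and 32.6% of all protein-coding genes did. The list genes were longer, with a median of 31.1 kb against 2.17 kb over all protein-coding genes. Among genes of at least 10 kb, 19 of 22 list genes (86.4%) had a summit, and 54.3% of all such protein-coding genes did. What remains of the difference once length is accounted for was not tested.

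By the strongest summit, the leading genes were br, which encodes the Broad zinc finger proteins (13 peaks, highest signal 256), Smr, a corepressor of nuclear receptors (4 peaks, 225), and Eip74EF, an ETS factor of the early response (14 peaks, 219). Next were vri, a bZIP factor (7 peaks, 219), crol, a zinc finger factor (5 peaks, 193), EcR (15 peaks, 174), Hr39, a nuclear receptor (4 peaks, 156), and tai, a coactivator of the ecdysone receptor (9 peaks, 154). Each of these highest signals lay below the 350 reached at Eip75B. Hr3, which encodes the receptor that E75 binds, had 2 peaks with a highest signal of 74.1, near that of the weakest Eip75B peaks.

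The 7 list genes without a thresholded summit were usp, the partner of EcR in the ecdysone receptor, Nos, the nitric oxide synthase, Eip93F, a factor of the later response, rig, a cofactor in the ecdysone pathway, and the ecdysone-inducible genes ImpE1, ImpE2 and ImpE3. Their pooled relaxed regions numbered 3 at usp, 1 at Nos, 12 at Eip93F, 2 at rig, 4 at ImpE1, 2 at ImpE2 and 1 at ImpE3. Eip93F, at 65.4 kb the longest of the 7, thus had relaxed regions and no thresholded peak.

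**Figure D5:**
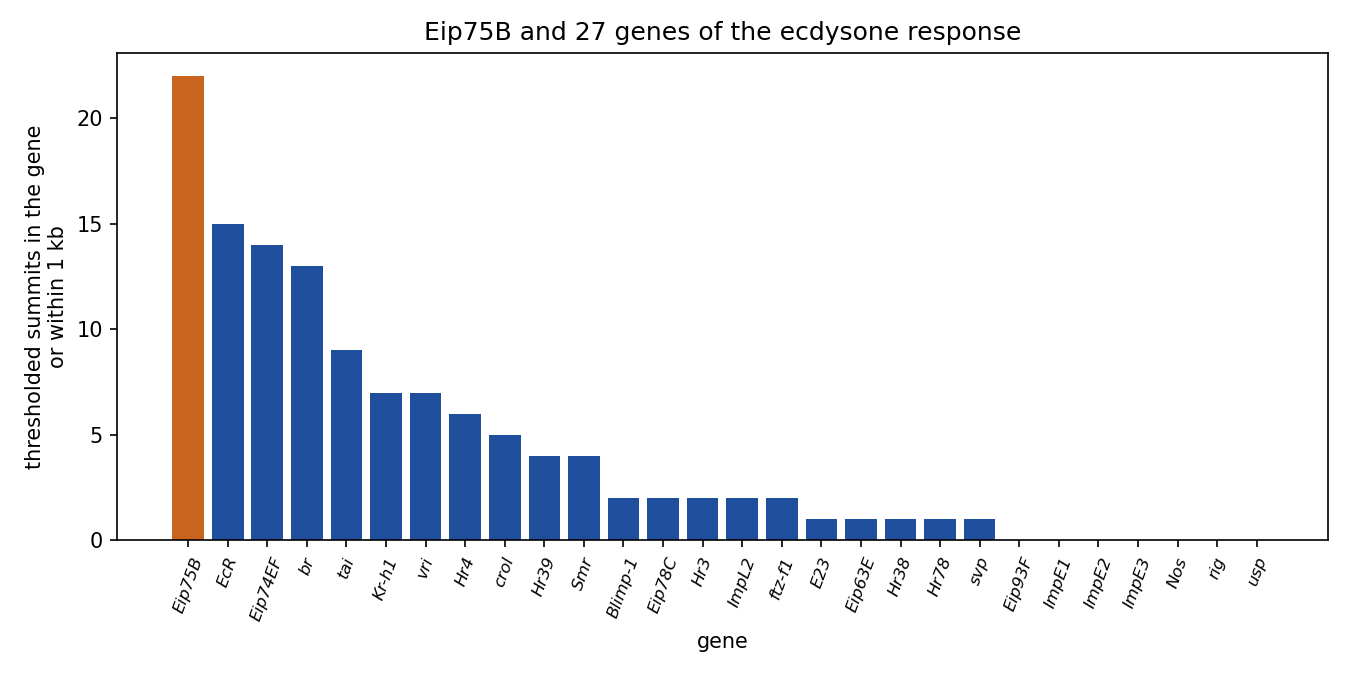
Number of thresholded summits in the gene or within 1 kb for Eip75B (orange) and the 27 listed genes of the ecdysone response (blue), ordered by count. Eip75B has 22, EcR 15, Eip74EF 14 and br 13, and 7 listed genes have 0.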

How the data were processed

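ChIP-seq region lists of Hr83-GFP larvae were analysed for 1 group with 2 biological replicates. The authors deposited lists in the narrowPeak layout on dm6, which hold a signal per region, the authors' own score, that is not normalized between lists. It was used to describe and rank regions within a list. Signals of both replicates are printed side by side, but they are not on a common scale, and only ranks can be compared between replicates. The notes deposited with the samples describe region calling on each replicate and on the pool with a control, and filtering by irreproducible discovery rate (IDR) to make the thresholded list. Aligner, caller and IDR threshold: not given in the sources used here. Lists on dm3 were not used. No read counts are given, so the depth per sample is unknown and no interval was computed.

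Positions are 1-based on dm6 and were placed on the RefSeq sequence of release 6 with the annotation of Ensembl release 115. All 7 start codons of Eip75B read ATG there, and 0 regions passed a chromosome end. Regions overlapped when they shared at least 1 bp. Density refers to the 133.9 Mb of 2L, 2R, 3L, 3R, 4 and X. Motifs were exact matches on both strands within 100 bp of the summit, except the inverted repeat. The text names Eip75B, the genes overlapping its window, of the ecdysone list the 8 genes with the strongest summit and each gene with none, and the 5 genes of a length within 20% with the closest count, with ties settled by the closest highest signal. The gene, the lists and the motifs were chosen with earlier results of these data known. Alternatives were other flanks, windows and overlaps, the 2398 strongest peaks of the thresholded list and each replicate alone. Counting and motif search were tested on simulated data. Python 3.11.15, pandas 2.3.3, numpy 2.4.6 and scipy 1.17.1 were used.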

Additional observations from a re-analysis of the deposited data

How the results depend on the processing

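Of 22 alternative settings of the main results, 20 gave a value within 1.5 times of the one reported. The exceptions were the count of thresholded peaks, which was 9 among the 2398 strongest peaks of the thresholded list, and the count of peaks near an isoform start, which was 2 within 250 bp, both with fewer peaks admitted by construction. For each replicate alone, summits were counted among the strongest 4797 regions of its relaxed list. The gene had 20 in replicate 3 and 25 in replicate 4, and it ranked 1 among genes of similar length in each. The gene was chosen by its count in a list made from these same replicates, so this rank is not independent support. The ecdysone genes with a summit numbered 19 with either replicate alone. They numbered 16 in the thresholded list when the summit had to lie within 1 kb of a start. No paired analysis was possible because the series has only 1 group. Of 14 alternatives for single motifs, 3 moved, all within 50 bp of the summit, where GAGAGAG was found in 4 peaks, CACACACA in 3 and GATAAG in 1. Unknown depth limits every statement on a missing region, and 22 peaks in 2 replicates limit the precision of each share.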
